A study of Mus musculus with 2 samples.

Results

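Cells with a Prdm6 transcript were taken from both libraries of the study as all cells with a nonzero Prdm6 value. They numbered 158 of 21723 cells, 101 of 11958 in the WT library and 57 of 9765 in the KO library. A transcript is counted here as a unique molecular identifier (UMI), a tag that marks 1 captured RNA molecule. Because the cells were chosen by their Prdm6 value, Prdm6 itself is only described in them, and the cells are a collection picked by 1 rare transcript, not a cell type. They are called Prdm6 cells below, and the other cells of the same library Prdm6-zero cells.

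The study carried out single-cell RNA sequencing on mouse embryos (C57BL/6) at E9.5, on a piece of tissue that ran from the level of the mid otic placode back to the end of the 4th somite. The genotype was Prdm6+/+; Wnt1-Cre2; ZsGreen1 for the WT library. For the KO library it was Prdm6f/f; Wnt1-Cre2; ZsGreen1. Both genotypes carried Wnt1-Cre2, which drives Cre in the Wnt1 lineage that forms neural crest, and ZsGreen1, a reporter switched on by Cre. The cross was thus designed to remove the floxed Prdm6 in that lineage alone and to leave the gene in other lineages of the KO embryos. No sort for the reporter was described. The embryos were pooled, and which cell came from which embryo was not analysed here, so each genotype had 1 library. All intervals below are exact 95% intervals that cover counting error only, differences between the libraries have no replicate check, and no test was made.

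Prdm6 belongs to the PRDM family, whose members carry a PR domain related to that of histone methyltransferases and mostly repress transcription through zinc fingers. It is known from smooth muscle, where it acts with histone-modifying enzymes, and from the outflow vessels of the heart and the ductus arteriosus. In embryos of this age the heart tube beats, its muscle still expresses smooth muscle genes such as Acta2 and Tagln, and cardiac neural crest cells are moving toward the outflow tract.

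The WT library held 20781384 UMIs with a median of 1597 per cell, and the KO library held 18936857 UMIs with a median of 1703. The libraries shared 26 cell barcodes, and 0 of the Prdm6 cells carried a shared one. In the KO library the targeted gene could not be checked directly, since counting near transcript 3′ ends cannot separate recombined from intact alleles and the table has no reporter column.

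Prdm6 was found as a single UMI in nearly all of its cells. In WT, 98 cells held 1 UMI and 3 cells held 2, which gave 104 UMIs. In KO, 55 cells held 1 UMI and 2 cells held 2, which gave 59. No cell held more. On the deposited square-root scale the Prdm6 value ran from 0.640 to 1.43 in WT, with a median of 0.892, and from 0.617 to 1.34 in KO, with a median of 0.805. Cells just outside the rule have a value of 0, so the step from outside to inside was 1 UMI. The share of cells with a Prdm6 UMI was 0.845% in WT (0.688% to 1.03%) and 0.584% in KO (0.442% to 0.756%). After every cell was thinned to 1000 UMIs in 1 random draw, the shares were 0.472% (50 of 10597 cells) and 0.259% (25 of 9640 cells). Cells below that depth were dropped from the thinned values, 1361 in WT and 125 in KO, among them 4 and 0 Prdm6 cells, and 47 WT and 32 KO Prdm6 cells lost their UMI in it.

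Prdm6 cells were deeper than the rest. Their UMIs per cell ran from 944 to 4003 in WT, with a median of 2071 against 1594 in Prdm6-zero cells, a ratio of 1.30. In KO they ran from 1076 to 4307, with a median of 2555 against 1698, a ratio of 1.50. The genes found per cell followed the same order, with medians of 1369 against 1114 in WT and 1572 against 1157 in KO. Depth is tied to the rule, because a deeper cell has more chances to show a rare transcript. If the level of Prdm6 per UMI were equal in all cells, its cells would have the depth of a randomly picked UMI, whose median was 1920 in WT and 2151 in KO. Of the Prdm6 cells, 69 of 101 in WT and 46 of 57 in KO lay above the median of their library, and 18 (17.8%) and 13 (22.8%) were among its deepest 10%. The Prdm6 level, in UMIs per 1000000 UMIs (CPM), was 5.65, 3.86, 4.34 and 5.81 in WT over 4 equal groups of cells from shallowest to deepest, and 1.41, 1.96, 3.20 and 4.25 in KO. The WT level thus had no order with depth. The KO levels rest on 4, 7, 16 and 32 UMIs, and the intervals of neighbouring groups overlap (0.383 to 3.60, 0.790 to 4.05, 1.83 to 5.20 and 2.91 to 6.00). Of the 5 cells with 2 UMIs, those of WT held 1594 to 2474 UMIs and those of KO held 1822 and 3418.

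**Figure D1:**
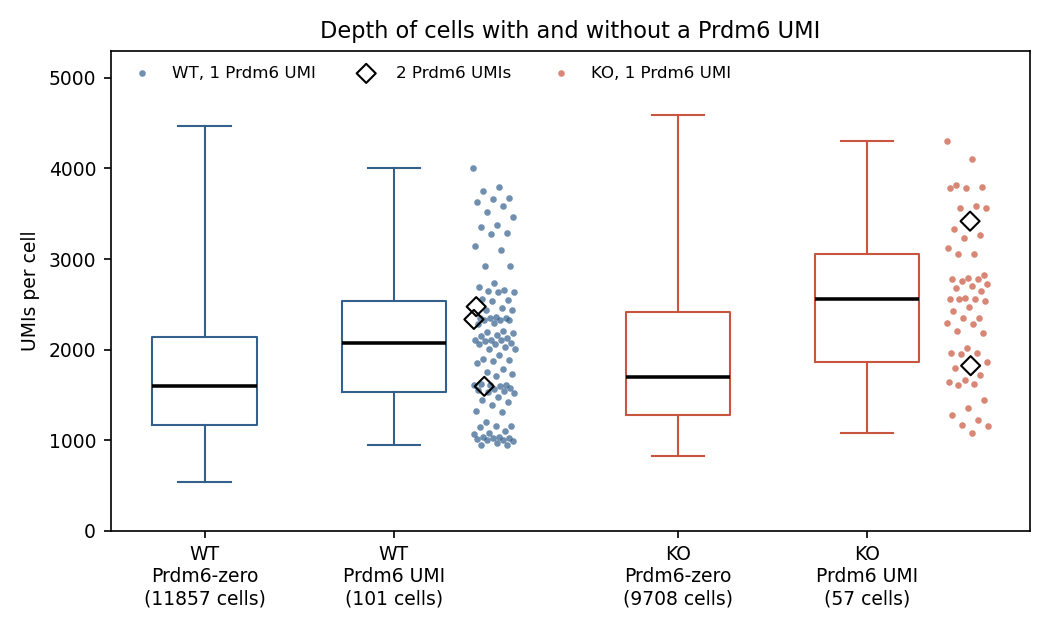
UMIs per cell of Prdm6-zero cells and Prdm6 cells in the WT (blue) and KO (red) libraries. Boxes give the quartiles with the median as a black line, whiskers the lowest and highest cell, points the single Prdm6 cells, and diamonds the cells with 2 Prdm6 UMIs; the medians of Prdm6 cells, 2071 and 2555, lie above those of Prdm6-zero cells, 1594 and 1698.

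To describe which lineage markers the cells carry, each cell of both libraries was scored on 20 marker panels. A panel led a cell when at least 3 of its markers had a UMI and its summed UMIs exceeded the number given by the cell's depth by a score of at least 3, and the highest such score decided. This is a range of a score per cell, not a cell type, and most shallow cells have no leading panel. Of the Prdm6 cells, 57 of 101 in WT (56.4%, 46.2% to 66.3%) and 30 of 57 in KO (52.6%, 39.0% to 66.0%) had none, against 71.3% and 76.8% of Prdm6-zero cells. Near the limits, with a best score within 1 of it or 1 marker short of it, lay 22 (21.8%) WT and 16 (28.1%) KO Prdm6 cells, and 20.04% and 19.26% of Prdm6-zero cells.

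Heart muscle was the panel that most often led the Prdm6 cells. It led 25 in WT (24.8%, 16.7% to 34.3%) against 5.78% of Prdm6-zero cells, and 18 in KO (31.6%, 19.9% to 45.2%) against 3.96%. These cells held 20 to 160 UMIs of the 12 cardiac muscle markers in WT, with a median of 92.0, and 34 to 165 in KO, with a median of 106. Splanchnic mesoderm, the layer beneath the heart and around the gut whose panel holds Foxf1, Foxf2, Hand1, Hand2, Osr1, Gata6, Tbx5 and Bmp4, led 9 WT cells (8.91%, against 2.05%) and 3 KO cells (5.26%, against 1.57%). This depended on the limits. With 2 markers needed the shares were 13.9% against 3.26% in WT and 8.77% against 2.18% in KO, with a score of 5 they were 2.97% against 1.12% and 1.75% against 0.731%, and with 4 markers 1.98% against 0.725% in WT and 0 of 57 in KO. At equal depth, with cells thinned before scoring, it led 1 of 97 WT Prdm6 cells (1.03%, against 0.838%) and 0 of 57 in KO. Cardiac muscle still led 24 of 97 (24.7%) and 18 of 57 (31.6%) after thinning. The proepicardium, which covers the heart with epicardium, led 2 Prdm6 cells in each library (1.98% against 0.633% of Prdm6-zero cells in WT, 3.51% against 0.258% in KO). Endothelium led 3 in WT and 1 in KO, a smaller share than in Prdm6-zero cells (2.97% against 4.31%, and 1.75% against 4.04%). The smooth muscle panel led 0 Prdm6 cells in both, although it led only 37 WT and 27 KO cells in all.

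Panels of the Wnt1 lineage led few cells. The migrating neural crest, arch mesenchymal neural crest and pre-EMT and roof plate panels together led 347 WT cells, of which 0 had a Prdm6 UMI, where a floor of 3 counts is a share of 0.865% and the exact interval ends at 1.06%. In KO they led 290 cells, of which 1 had a Prdm6 UMI (0.345%, up to 1.91%). Both intervals include the share over all cells, 0.845% and 0.584%, so a lower share per cell was not detectable. These cells were deeper, with a WT median of 2254 UMIs, and per UMI the exact limit of the WT cells was 4.51 CPM. This is below the 5.00 CPM of the whole library, a value taken here without its own counting error. It lies inside the interval of WT erythroid-led cells, 0.875 to 8.23 CPM. The KO cell with a Prdm6 UMI was led by migrating neural crest, with 5 markers and 11 UMIs of the panel. Neural tube, floor plate and neuron panels led 583 WT and 484 KO cells, with 1 Prdm6 cell each. Another WT cell held 4 migrating neural crest markers with a score short of the limit. A single neural crest marker was as common in Prdm6 cells as elsewhere: 31 of 101 WT cells (30.7%) had at least 1, against 30.7% of Prdm6-zero cells, and 19 of 57 KO cells (33.3%), against 32.2%.

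**Figure D2:**
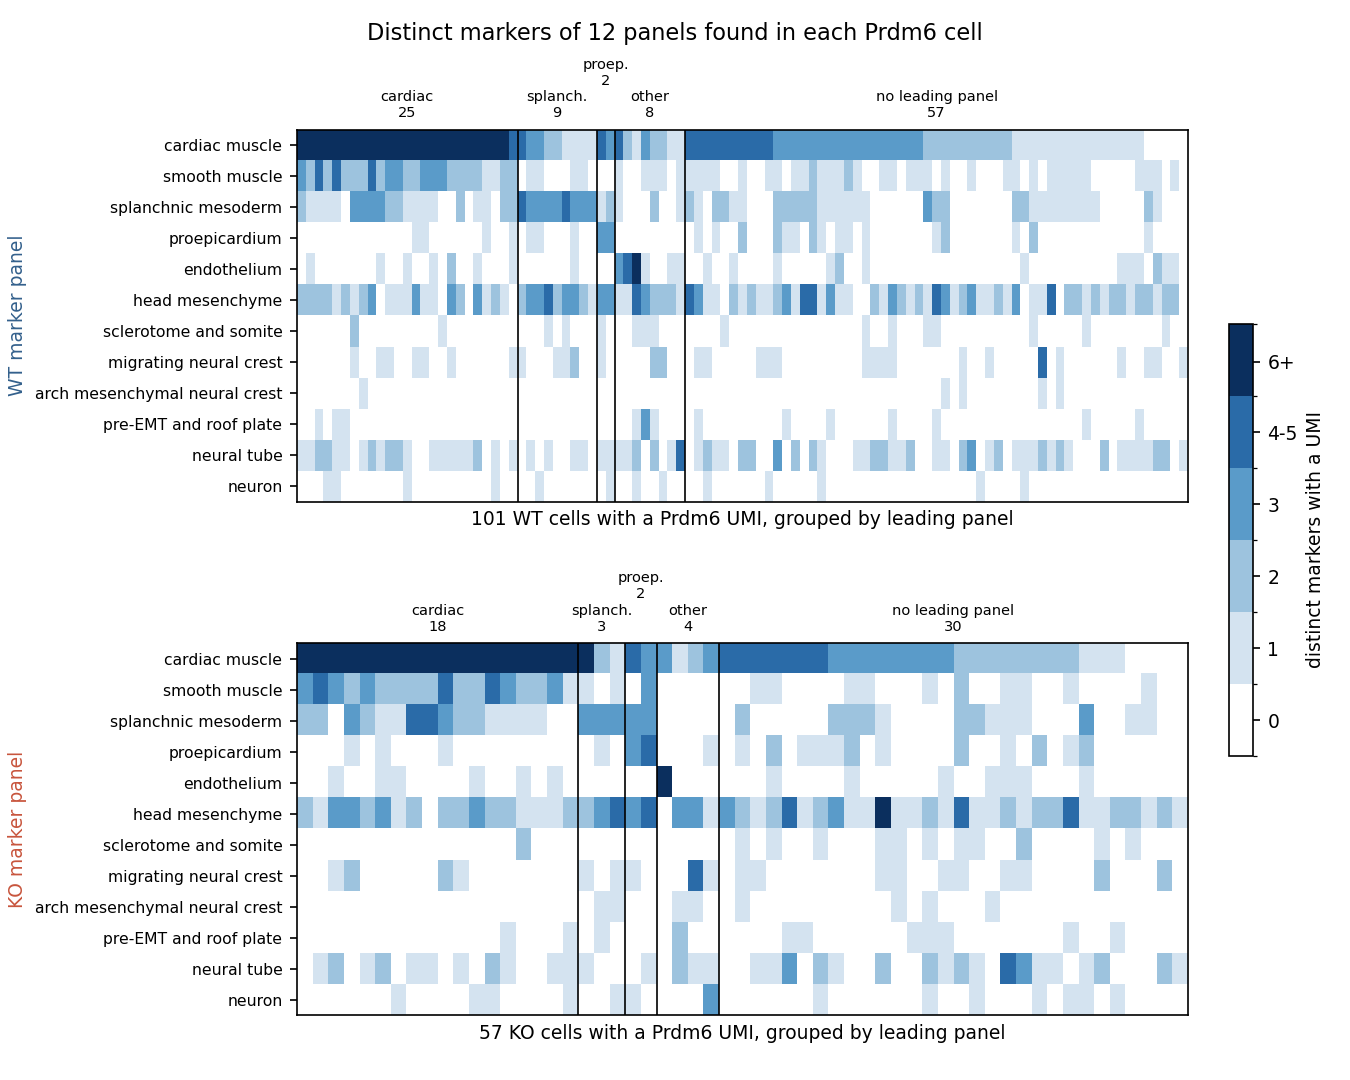
Number of distinct markers of 12 panels with a UMI (colour, from 0 in white to 6 or more in dark blue) in each of the 101 WT and 57 KO Prdm6 cells (columns), grouped by leading panel, where splanch. is splanchnic mesoderm, proep. proepicardium and other every further panel that led a cell. The 25 WT and 18 KO cells led by cardiac muscle form the dark block at the left, and splanchnic markers are scattered among the 57 and 30 cells with no leading panel.

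A marker of smooth muscle, splanchnic mesoderm or proepicardium was present in 83 of 101 WT cells (82.2%) against 60.2% of Prdm6-zero cells, and in 44 of 57 KO cells (77.2%) against 56.1%. In cells with no leading panel it was present in 42 of 57 (73.7%) against 58.2% in WT and in 20 of 30 (66.7%) against 54.3% in KO. More than 1 panel passed both limits in 12 WT (11.9%) and 15 KO (26.3%) Prdm6 cells, against 4.04% and 3.62% of Prdm6-zero cells. Most of these 12 WT and 15 KO cells were led by cardiac muscle. That panel led 24.8% of WT and 31.6% of KO Prdm6 cells, against 5.78% and 3.96% of Prdm6-zero cells. The Prdm6 cells were also deeper, and the part of leading panel, depth and doublets in these shares was not tested. Cardiac muscle markers taken singly say little, because 90.2% of WT and 92.3% of KO Prdm6-zero cells also had at least 1. The 5 cells with 2 Prdm6 UMIs were of the same kinds. In WT, 1 was led by cardiac muscle (33 UMIs of 8 markers) and 2 had no leading panel but 2 splanchnic markers each. In KO, 1 was led by cardiac muscle (49 UMIs of 9 markers) and 1 by proepicardium, with 19 UMIs of cardiac muscle as well.

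The same picture can be read from the other side, as the level of Prdm6 in all cells led by a panel. In cardiac muscle-led cells it was 15.9 CPM in WT (26 UMIs in 710 cells, 10.4 to 23.3) and 16.7 CPM in KO (19 UMIs in 402 cells, 10.0 to 26.0). In splanchnic mesoderm-led cells it was 16.6 CPM in WT (9 UMIs, 7.60 to 31.6) and 7.65 CPM in KO (3 UMIs, 1.58 to 22.4). The heart and splanchnic panels held 11.9% of all WT UMIs but 35.6% of Prdm6 UMIs, and 9.18% of KO UMIs but 42.4% of Prdm6 UMIs. The Wnt1 lineage panels held 3.94% and 4.30% of all UMIs, and 0 and 1.69% of Prdm6 UMIs. Their limit of 4.51 CPM in WT also lay below the lower limit of the cardiac muscle-led cells.

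Erythroid cells should lack the gene and served as a background for RNA that was free in the suspension. Of 614 WT cells led by the erythroid panel, 4 had a Prdm6 UMI (0.651%, 3.21 CPM, 0.875 to 8.23), at a median depth of 1951.5 UMIs. Of 239 KO cells, 0 had one at a median of 2378, where a floor of 3 counts is a share of 1.26% and the exact interval ends at 1.53%. In WT cells with no leading panel the share was 0.670% (59 UMIs, 4.42 CPM, 3.36 to 5.70) at a median depth of 1421, and after thinning it was 0.413% against 0.172% of erythroid-led cells. The intervals of the level overlapped, so Prdm6 in WT cells with no leading panel was not told apart from this background. In KO cells with no leading panel it was 2.29 CPM (30 UMIs, 1.54 to 3.26) in 0.401% of cells, and this too lay within the background's limit of 6.36 CPM. Splanchnic mesoderm-led cells also overlapped the background of their library. The cardiac muscle-led share was 3.52% in WT (2.29% to 5.15%) and 4.48% in KO (2.68% to 6.98%), above the upper limit of the erythroid-led share in the same library, 1.66% and 1.53%. After thinning, 2.01% of WT and 0.998% of KO cardiac muscle-led cells kept a Prdm6 UMI (14 of 697 and 4 of 401), against 1 of 580 and 0 of 232 erythroid-led cells. The thinned KO share rests on 4 cells of 1 random draw, and the limit of 1.53% is from cells before thinning, so the 2 are not alike. Per UMI, cardiac muscle-led cells were at 15.9 CPM in WT (10.4 to 23.3) and 16.7 CPM in KO (10.0 to 26.0). These intervals lay above the erythroid-led limits of 8.23 and 6.36 CPM.

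**Figure D3:**
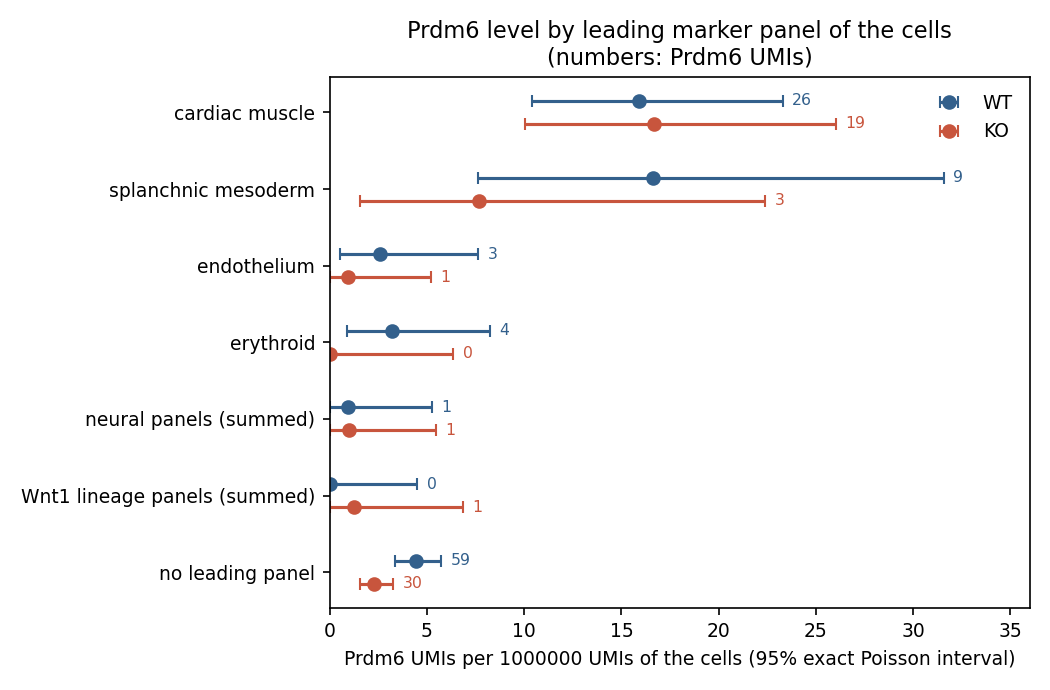
Prdm6 UMIs per 1000000 UMIs of all WT (blue) and KO (red) cells led by each panel, with exact 95% Poisson intervals and the number of Prdm6 UMIs beside each. Cells led by cardiac muscle, at 15.9 and 16.7, lie above cells of the neural and Wnt1 lineage panels, which hold 0 to 1 Prdm6 UMI.

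Prdm6 was higher in cells with more smooth muscle and splanchnic markers. In WT cells with 0, 1, 2 and 3 or more smooth muscle markers it was 2.77, 7.25, 11.0 and 10.6 CPM, and in KO cells 2.35, 2.16, 9.88 and 11.7 CPM. After thinning, the share of WT cells with a Prdm6 UMI went from 0.265% with no such marker to 0.847%, 1.30% and 2.83%, the last from 3 Prdm6 cells. In KO it was 0.238%, 0.236%, 0.645% and 1.30%, the last from 1 cell. Splanchnic markers gave 2.71, 6.49, 11.9 and 14.0 CPM in WT and 1.90, 3.24, 7.71 and 13.3 CPM in KO. After thinning, the shares at 0, 1 and 2 splanchnic markers were 0.329%, 0.774% and 1.54% in WT, with KO values of 0.205%, 0.399% and 1.13%. Of cells with 3 or more such markers, 0 of 102 in WT and 0 of 48 in KO kept a Prdm6 UMI. Proepicardial markers gave 4.22, 9.48, 13.3 and 9.72 CPM in WT, the last on 2 UMIs, and 2.31, 6.82, 26.2 and 38.7 CPM in KO, the last on 3 UMIs (7.97 to 113). Migrating neural crest markers gave no such order, with 5.35, 5.10, 2.78 and 1.32 CPM in WT and 3.22, 2.98, 3.71 and 1.41 CPM in KO. Cardiac muscle markers gave no steady order either. In WT the level was 2.61 CPM with 0 markers, 2.83 CPM with 2 and 7.31 CPM with 3 or more. The WT level with 1 marker lay between those of the last 2 groups. In KO the levels were 2.92, 1.22, 1.89 and 4.91 CPM. In WT, endothelium, neural tube, head mesenchyme and pre-EMT and roof plate markers gave no such rise. In KO, head mesenchyme rose while neural tube and pre-EMT and roof plate fell, with intervals that overlap. These are descriptions over cells of a library, and cells with more markers were also deeper.

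Prdm6 levels in cells with a UMI of a single gene were set beside those of the whole library, at 5.00 CPM in WT and 3.12 CPM in KO. Cells with a UMI of Nkx2-5, the homeobox factor of heart muscle precursors, had 14.8 CPM of Prdm6 in WT (18 UMIs, 8.75 to 23.3) and 8.04 CPM in KO (7 UMIs, 3.23 to 16.6). Cells with Wnt2, a ligand of the posterior heart field, had 16.0 CPM in WT (8.96 to 26.4) and 7.45 CPM in KO (2.42 to 17.4, which includes the library). For Gata4, the zinc finger factor of heart and foregut mesoderm, the levels were 12.4 and 11.1 CPM, and for Gata6, its relative, 11.1 and 5.97 CPM. Tagln, an actin-binding protein of smooth muscle, gave 11.1 and 6.44 CPM. Myocd, the coactivator that switches on smooth and heart muscle genes, gave 9.89 CPM in WT and 13.9 CPM in KO, on 7 and 9 UMIs, and its WT interval (3.98 to 20.4) includes the library. Hand2, Wt1 and Tbx18, the last of the proepicardium, gave 4.84 (2.09 to 9.53), 8.07 (0.978 to 29.2) and 6.50 CPM (2.11 to 15.2) in KO, which include the library too, and 11.0, 16.5 and 10.7 CPM in WT, which do not. Pax3, of dorsal neural tube and somite, gave 1.53 CPM in WT (0.315 to 4.46), below the library, and 2.07 CPM in KO (0.564 to 5.30), not told apart from it. Of 4 neural crest genes, Foxd3 gave 2.13 and 2.46 CPM, Tfap2b 2.16 and 0.881 CPM and Dlx2 1.20 and 2.70 CPM, on 1 to 3 UMIs each, while Sox10 gave 2.75 CPM in WT (0.750 to 7.05) and 4.72 CPM in KO (1.90 to 9.73). The intervals of all 4 genes include the library in both genotypes. Wnt1, the gene whose promoter drives Cre, was too rare to be placed. Of 154 WT and 139 KO cells with a Wnt1 UMI, 0 also had a Prdm6 UMI, which allows levels of up to 12.5 and 12.4 CPM. Isl1, which marks the second heart field, gave 3.66 and 4.70 CPM, with intervals that include the library.

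Summed over cells, heart and smooth muscle markers were more abundant in Prdm6 cells than in Prdm6-zero cells of the same library. Cardiac muscle markers reached 11670 against 4075 CPM in WT (log2 ratio 1.52, 1.46 to 1.58) and 13122 against 3311 CPM in KO (1.99, 1.92 to 2.05). Smooth muscle markers reached 1631 against 577 CPM (1.50, 1.34 to 1.65) and 1467 against 457 CPM (1.68, 1.48 to 1.88). Splanchnic markers reached 865 against 382 CPM (1.18, 0.96 to 1.39) and 804 against 294 CPM (1.45, 1.17 to 1.72). Proepicardial markers were at 180 against 100 CPM in WT (0.84, 0.34 to 1.30) and at 245 against 61.5 CPM in KO (1.99, 1.46 to 2.48). No single cell gave more than 9.57% of the cardiac or smooth muscle UMIs of the Prdm6 cells. Against Prdm6-zero cells weighted to the same leading panels, a comparison chosen after seeing the data, the ratios were 0.034 and −0.012 for cardiac muscle, 0.25 and −0.018 for smooth muscle and 0.31 and 0.44 for splanchnic mesoderm in WT and KO. The leading panels are scored from these same markers, so the weighting itself brings such ratios nearer to 0.

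Most panels of neural and somitic lineages were less abundant. The floor plate panel was not shown to be, at 0.23 in WT (−0.23 to 0.65) and 0.29 in KO (−0.30 to 0.82), but 18 of its 45 WT UMIs were in 1 cell. Of its 4 genes tested in WT, 1 was higher and 2 were lower, against 2.08% and 4.75% of all genes. The pre-EMT and roof plate panel gave a log2 ratio of −1.43 in WT (17 UMIs, −2.22 to −0.75) and −0.99 in KO (15 UMIs, −1.83 to −0.27). The neuron panel gave −1.65 and −0.76 and the neural tube panel −0.35 and −0.74. The sclerotome and somite panel gave −1.33 in WT (17 UMIs, −2.11 to −0.65), and in KO its 14 UMIs gave an interval from −1.87 to −0.25. Migrating neural crest was at 180 against 322 CPM in WT (−0.84, −1.34 to −0.38) and at 266 against 303 CPM in KO (−0.19, −0.69 to 0.27), with 11 of the 38 KO UMIs in 1 cell. The erythroid panel was lower as well, by log2 ratios of −0.91 in WT and −2.04 in KO. Its UMIs were found in 101 of 101 WT and 55 of 57 KO Prdm6 cells.

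**Figure D4:**
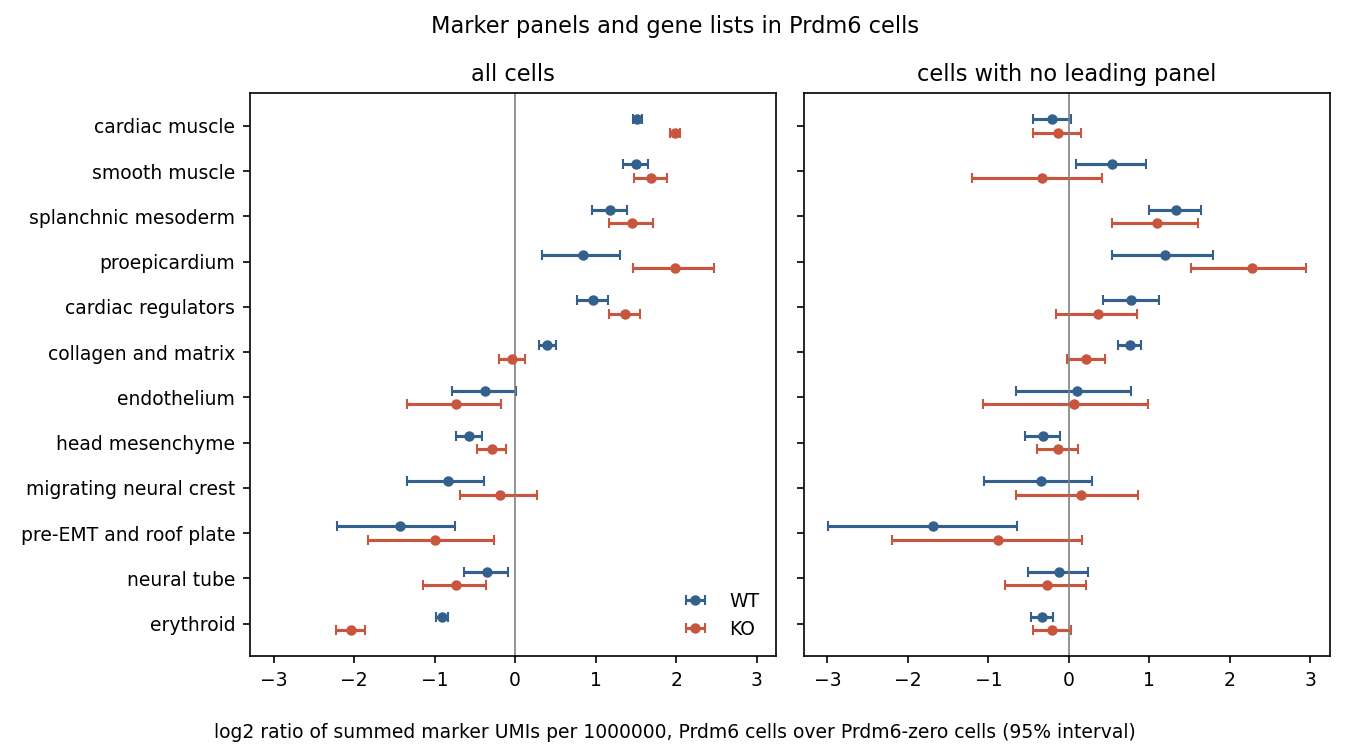
Log2 ratio of summed marker UMIs per 1000000 in Prdm6 cells over Prdm6-zero cells of the same library, WT in blue and KO in red, with exact 95% intervals, over all cells (left) and over cells with no leading panel (right). Cardiac muscle lies at 1.52 and 1.99 on the left but at −0.21 and −0.13 on the right, whereas splanchnic mesoderm and proepicardium stay above 0 on both sides.

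Gene by gene, Prdm6 cells were compared with Prdm6-zero cells for genes with at least 5 UMIs expected in the Prdm6 cells from the library's mean, 6586 in WT and 5114 in KO. A gene was called at a ratio of at least 2-fold. In WT, 137 genes were higher (2.08%) and 313 lower (4.75%). In KO, 130 were higher (2.54%) and 323 lower (6.32%). The median log2 ratio over all of these genes was −0.05 in WT and −0.07 in KO. Of the 5113 genes that met the minimum in both libraries, 54 were higher in both, which is 70.1% of the 77 WT and 41.5% of the 130 KO genes called there. Lower calls were shared less, with 22 genes, 13.5% of 163 and 6.83% of 322. Across these genes the ratios of the libraries had a Pearson correlation of 0.29, and genes are not independent replicates.

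The cardiac muscle panel gave 10 of the 54 genes higher in both libraries. Of the cardiac muscle panel, 11 of 12 genes tested in WT and 11 of 11 in KO were higher, against 2.08% and 2.54% of all genes, with median log2 ratios of 1.50 and 1.94. Tnnt2, the troponin T of heart muscle, had 192 UMIs in 36 WT Prdm6 cells, or 908 against 262 CPM (1.79, 1.58 to 2.00), and 121 UMIs in 30 KO cells, or 845 against 225 CPM (1.91, 1.63 to 2.17). Ryr2, the calcium release channel of the sarcoplasmic reticulum, had 35 UMIs in 18 WT cells (2.06, 1.53 to 2.55) and 36 in 16 KO cells (2.89, 2.36 to 3.37). Popdc2, a membrane protein of heart muscle involved in pacemaking, had 47 and 42 UMIs, with ratios of 1.98 and 2.95. Smpx, a small protein of striated muscle, had 77 and 63 UMIs (2.04 and 2.49), 24 of the WT ones in 1 cell. On the mouse genome build GRCm38 (mm10), the GENCODE annotation places Tnnt2 on chr1:135836354-135852260 of the plus strand and Ryr2 on chr13:11553102-12106945 of the minus strand, and UMIs were read near the 3′ ends of these genes.

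Further genes were higher in both libraries. Ttn, the giant spring protein titin, reached 1102 against 340 CPM in WT (1.69) and 1838 against 354 CPM in KO (2.38). Myl7, the atrial regulatory light chain, reached 2322 against 804 CPM (1.53) and 2816 against 788 CPM (1.84). Dsp, the desmosomal protein desmoplakin, stood at 1.72 and 2.14, Cryab, a small heat shock protein of muscle, at 1.69 and 2.75, Atp1b1, a subunit of the sodium pump, at 1.68 and 2.15, Myl9, a light chain of smooth muscle myosin, at 1.63 and 2.04, and Ankrd1, a stretch-responsive titin partner, at 1.81 and 2.15. Myh7, the slow myosin heavy chain, was at 1.90 in WT and 1.30 in KO.

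Of the smooth muscle and regulatory genes, some were higher in both libraries. Acta2, smooth muscle actin, had 241 UMIs in 55 WT cells (1140 against 413 CPM, 1.47, 1.27 to 1.65) and 148 in 27 KO cells (1034 against 307 CPM, 1.75, 1.50 to 1.99). Tagln had 79 UMIs in 30 WT cells (374 against 107 CPM, 1.81, 1.46 to 2.13) and 37 in 14 KO cells (259 against 94.8 CPM, 1.45, 0.94 to 1.92). These were the 2 smooth muscle markers that met the minimum, and the other 6 of that panel did not in either library. Myocd, under the minimum, had 8 and 11 UMIs, with ratios of 1.07 (−0.15 to 2.06) and 2.29 (1.27 to 3.15). Of the smooth muscle regulators, 0 of 9 tested in WT were higher and 1 was lower, and 3 of 8 in KO were higher. Of the cardiac regulators, 3 of 8 tested in WT and 6 of 7 in KO were higher. Over all genes tested, 2.08% in WT and 2.54% in KO were higher. Gata4 was higher in both, with 40 UMIs (1.35) and 21 UMIs (1.69), and so was Bmp2, a growth factor of the atrioventricular canal, with 18 UMIs (1.26) and 23 UMIs (2.21). Tbx20, a T-box factor of the heart, had 13 UMIs in WT (0.61, −0.31 to 1.39) and 21 in KO (2.05, 1.34 to 2.67).

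Some of the highest WT genes were not called in KO. Nkx2-5 was the highest of those named by rule, with 29 UMIs in 18 WT cells (137 against 31.4 CPM, 2.13, 1.54 to 2.66). In KO it had 8 UMIs in 7 cells, under the minimum (1.35, 0.13 to 2.35). Col1a1, a fibrillar collagen, had 110 UMIs in 22 WT cells (1.91), of which 51 were in 1 cell, and 20 in 7 KO cells (0.82). Wnt2 had 19 UMIs in 15 WT cells (1.90) and 6 in KO (1.27, −0.18 to 2.41), under the minimum. Rspo3, a Wnt-enhancing ligand, had 18 and 11 UMIs (1.83 and 1.92), the latter under the minimum. Bves, a relative of Popdc2, Cox6a2, a muscle form of a cytochrome oxidase subunit, and Hspb7, a small heat shock protein of heart, had WT ratios of 1.84, 1.89 and 1.80 and KO ratios of 2.47, 2.28 and 2.60 under the minimum. Usp2, a deubiquitinase, had 19 WT UMIs (1.94) and 5 KO UMIs (0.75, −0.88 to 1.99).

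The splanchnic and proepicardial lists were thinner. Of the splanchnic panel, 3 of 6 genes tested in WT and 1 of 3 in KO were higher, against 2.08% and 2.54% of all genes. Of the 7 proepicardial genes measured, 1 was tested in WT and 0 in KO, and 0 were called. Gata6 had 96 UMIs in 46 of the 101 WT cells, or 454 against 157 CPM (1.53, 1.22 to 1.82), and 35 UMIs in 20 KO cells, or 245 against 123 CPM (1.00, 0.47 to 1.48), just under 2-fold. Hand2, a basic helix-loop-helix factor of the heart and pharyngeal arches, had 32 UMIs in WT (1.38) and 13 in KO (0.96). Bmp4, which signals from splanchnic mesoderm, had 22 UMIs in WT (1.10) and 19 in KO (1.84). Wt1 and Upk3b, both of the proepicardium and epicardium, were under the minimum: Wt1 had 8 and 2 UMIs, with ratios of 1.82 (0.59 to 2.82) and 1.27 (−1.80 to 3.16), and Upk3b had 2 and 8 UMIs, with ratios of 0.38 (−2.67 to 2.26) and 4.11 (2.83 to 5.17).

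Genes lower in the Prdm6 cells rest on few counts. Smyd5, a SET domain protein, had the lowest WT ratio of those named, with 1 UMI where 10.0 were expected (−3.34, −8.64 to −0.86), and it had 1 UMI where 6.33 were expected in KO (−2.67, −7.98 to −0.19). Pax3 had 3 and 4 UMIs (−2.12, −4.40 to −0.57, and −1.01, −2.89 to 0.35). Zic1, a zinc finger factor of the dorsal neural tube, had 9 and 3 UMIs (−1.43, −2.56 to −0.50, and −2.39, −4.67 to −0.84). Notch1, a receptor of lateral inhibition, had 4 and 5 UMIs (−1.91 and −0.95), and Meox1, of the somites, 4 and 5 (−1.86 and −0.98), with KO intervals that reach above 0. Sox10 had 4 UMIs in WT (−1.71, −3.58 to −0.35) and 9 in KO (0.11). Rtn1, a reticulon of neurons, had 2 WT UMIs (−2.72, −5.77 to −0.87) and 10 KO UMIs (0.36). The remaining genes of the WT rule were Abcf2 (−2.42), Elp3 (−2.01), Ctxn1 (−1.88) and Aldh2 (−1.84), on 3 UMIs each, with KO ratios of −0.91, −0.35, −1.09 and −0.53. The erythroid gene Hbb-bh1, an embryonic globin, was lower on a larger count, with 252 UMIs against 571 expected in WT (−1.19) and 42 against 232 in KO (−2.47).

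**Figure D5:**
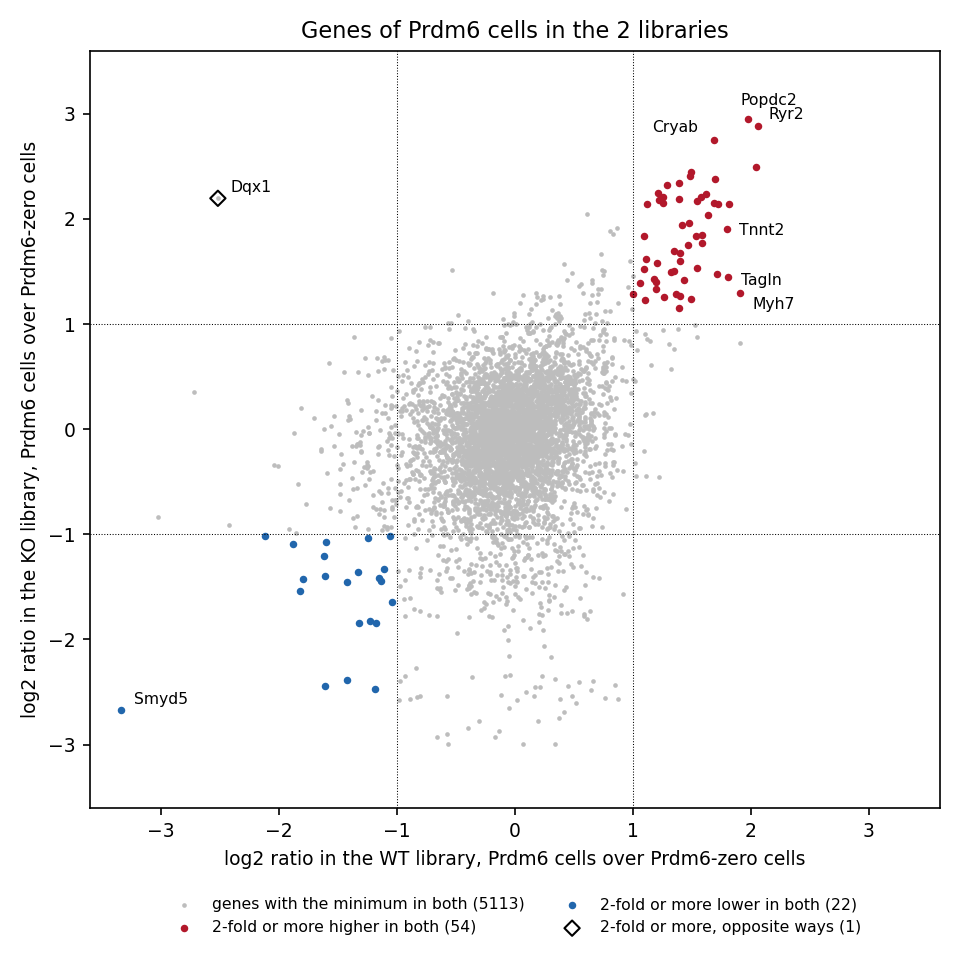
Log2 ratio of Prdm6 cells over Prdm6-zero cells for each of the 5113 genes that met the minimum in both libraries, WT on the horizontal and KO on the vertical axis, with dotted lines at 2-fold and genes without a UMI set at 3 UMIs. The 54 red genes, led by Popdc2 and Ryr2, are higher in both, the 22 blue genes lower in both, and 1 gene (diamond, Dqx1) is called in opposite directions.

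The number of higher calls was smaller against weighted Prdm6-zero cells. When Prdm6-zero cells were weighted to the same shares of leading panels, 26 of the 137 WT and 14 of the 130 KO genes were still at least 2-fold higher. The leading panels are scored from markers that are among these genes, so this weighting also removes part of what was called. Weighting to the same depths kept 114 and 105. Lower genes kept 243 of 313 and 246 of 323 under the weighting by panel.

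Inside the cardiac muscle-led cells, Prdm6 cells were compared with Prdm6-zero cells panel by panel and gene by gene. Their median depths were 2344 against 2242 UMIs in WT and 2918 against 2956 in KO. The cardiac muscle panel differed by 0.07 in WT (0.01 to 0.13) and −0.02 in KO, and the smooth muscle panel by 0.26 in WT (0.09 to 0.43) and −0.02 in KO (−0.24 to 0.20). Ryr2, Popdc2, Tagln, Nkx2-5 and Rspo3 were named because they were among the highest genes of Prdm6 cells, so their values here are only described. Ryr2 and Popdc2 stood at more than the Prdm6-zero level in both libraries, Ryr2 at 538 against 357 CPM in WT (0.59, 0.05 to 1.09) and 614 against 374 CPM in KO (0.72, 0.16 to 1.23), and Popdc2 at 680 against 478 CPM (0.51, 0.03 to 0.95) and 708 against 402 CPM (0.81, 0.30 to 1.29). Tagln contributed 68 UMIs in 20 of the 25 WT cells (1076 against 690 CPM, 0.64, 0.27 to 1.00) and 35 UMIs in 12 of the 18 KO cells (652 against 723 CPM, −0.15, −0.68 to 0.34). Nkx2-5, whose 29 WT UMIs all lay in these cells, stood at 459 against 242 CPM in WT (0.93, 0.33 to 1.47) and at 149 against 209 CPM in KO on 8 UMIs (−0.49, −1.72 to 0.51). The intervals overlap, and the difference between the libraries was not tested. Tbx5, a T-box factor of the posterior heart, had 3 UMIs in WT (−1.29, −3.58 to 0.28) and 16 in KO (1.34, 0.49 to 2.09), a difference that was not tested either. Rspo3 was at 1.37 in WT (14 UMIs, 0.46 to 2.16) and 1.09 in KO (10 UMIs, −0.02 to 2.03). Collagen and matrix genes were at −0.19 in WT and −0.54 in KO (−0.86 to −0.23), and smooth muscle regulators at −0.35 in WT (−0.65 to −0.07) and −0.28 in KO (−0.59 to 0.01).

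Among cells with no leading panel, splanchnic and proepicardial markers were more abundant in the Prdm6 cells. The panel rule keeps cells rich in any panel out of this group, cardiac muscle included. Their median depth was 1727 against 1419 UMIs in WT and 2103 against 1509 in KO. The splanchnic panel was at 784 against 312 CPM in WT (1.33, 1.00 to 1.64) and 481 against 225 CPM in KO (1.09, 0.53 to 1.60). The WT difference rested on Gata6, which gave 55 of the 82 UMIs, and without it the ratio was 0.52 (−0.085 to 1.06). The KO ratio was 1.10 without it, and 0.27 when the leading panel needed 2 markers. The proepicardial panel was at 220 against 95.7 CPM in WT (1.20, 0.54 to 1.79) and 279 against 57.7 CPM in KO (2.28, 1.51 to 2.95). Cardiac regulators were at 0.78 in WT (0.42 to 1.12) and 0.37 in KO (−0.16 to 0.84). Cardiac muscle markers, held low by the rule, were at −0.21 in WT (−0.45 to 0.02) and −0.13 in KO. Smooth muscle markers were at 0.54 in WT (46 UMIs, 0.09 to 0.96) and −0.34 in KO (14 UMIs, −1.21 to 0.41).

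Single genes of and outside these panels differed in size and direction. Gata6 had 55 UMIs in 23 of the 57 WT cells, or 526 against 132 CPM (1.99, 1.58 to 2.38), and 13 UMIs in 6 of the 30 KO cells, or 202 against 94.5 CPM (1.09, 0.18 to 1.87). Gata4 had 18 UMIs in 12 WT cells (1.73, 0.96 to 2.40) and 6 in 5 KO cells (1.68, 0.23 to 2.82). Dsp had 21 UMIs in 13 WT cells (1.65, 0.95 to 2.28) and 7 in 5 KO cells (1.32). Wnt2 had 9 UMIs in 6 WT cells (2.02, 0.88 to 2.97) and 1 in KO. Other splanchnic and proepicardial members had WT ratios below 0 on 1 or 2 UMIs, Foxf1 at −0.62 (−3.67 to 1.25), Osr1 at −0.93 (−3.98 to 0.93) and Lrrn4 at −1.06 (−6.37 to 1.43). Upk3b had 5 UMIs in 5 KO cells (4.81, 3.11 to 6.17) and 2 in WT (1.52, −1.54 to 3.42). Postn, a matrix protein of cushion and valve mesenchyme, had 23 UMIs in 5 WT cells (2.57), 11 of them in 1, and 7 in 5 KO cells (3.10, 1.77 to 4.18). Col1a2 had 51 UMIs in 14 WT cells (1.67) and 18 in 7 KO cells (1.37, 0.61 to 2.03). Col1a1 had 94 UMIs in 12 WT cells, 51 of them in 1. Since a Prdm6 UMI in WT cells with no leading panel was not told apart from the erythroid-led background, the part of free RNA in this group of cells was not tested.

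Between the genotypes, Prdm6 was compared within leading panels. Its log2 ratio of KO over WT was 0.07 in cardiac muscle-led cells (−0.87 to 0.98), −1.12 in splanchnic mesoderm-led cells on 9 and 3 UMIs (−3.64 to 0.88), and −0.06 over the heart and splanchnic panels together (−0.85 to 0.71). It was −0.95 in cells with no leading panel (−1.64 to −0.29), where the level was not told apart from the erythroid-led background, itself at 3.21 CPM in WT and on 0 UMIs in KO. The difference between these ratios was not tested, and their intervals overlap. In the Wnt1 lineage panels, named for the lineage in which Cre is driven, 0 and 1 UMIs allow no ratio. The paper showed reporter-positive cells in the heart muscle at E9.5, so cells led by other panels may belong to that lineage too.

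Cardiac muscle markers were higher in KO than in WT Prdm6 cells by 0.17 (0.08 to 0.26), while the log2 ratio in Prdm6-zero cells was −0.30. Over the 50 WT and 25 KO Prdm6 cells that kept their UMI after thinning, this ratio turned to −0.73. Smooth muscle markers gave −0.15 (−0.41 to 0.10; Prdm6-zero cells −0.34), and −1.19 over the cells that kept their UMI, and splanchnic markers −0.11 (−0.46 to 0.24; Prdm6-zero cells −0.38). Cardiac regulators gave 0.45 (0.18 to 0.73), which turned to −0.21 over the cells that kept their UMI, and proepicardial markers 0.44 (−0.26 to 1.15). Collagen and matrix genes gave −0.62 (−0.82 to −0.43; Prdm6-zero cells −0.19), with 95 of the 696 WT UMIs in 1 cell. The erythroid panel gave −2.09, against −0.95 in Prdm6-zero cells. Of its 1601 UMIs in WT Prdm6 cells, 4 erythroid-led cells held 197 to 216 each, and 0 KO Prdm6 cells were erythroid-led. With 1 library per genotype, the genotype and the library cannot be told apart.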

How the data were processed

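Single cells of pooled E9.5 mouse embryos were measured with 10x 3′ RNA sequencing in 2 libraries, 1 per genotype. The authors aligned and counted UMIs with Cell Ranger 1.3.1 and worked in Scanpy, as named in the submitters' processing notes. The labels give the build mm10, whereas the study's methods name a human genome with ZsGreen1 added, and the gene symbols are those of mouse. The authors also filtered cells and genes, removed mitochondrial and ribosomal UMIs, and excluded doublets with a caller and an upper limit on UMIs. The deepest cell in the tables held 4588 UMIs.

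The deposited values are a signal, the square root of UMIs scaled to a common total per cell. UMIs were recovered as the squared value over the smallest nonzero square of the cell, and 100% were whole within 0.01. Since each genotype had 1 library, no count model and no test was used. UMIs were summed over Prdm6 cells and Prdm6-zero cells of a library, divided by all UMIs of those cells (CPM) and compared as log2 ratios with exact conditional 95% intervals. Shares have Clopper-Pearson intervals and levels Poisson intervals, all for counting error only. A gene needed 5 expected UMIs and was called at 2-fold. The floor was 3 UMIs. The score of a panel was the summed UMIs minus those given by depth, over the square root of the latter, and a leading panel needed 3 markers and a score of 3.

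The text names the 15 highest genes in WT (at least 10 UMIs in 5 cells), the 10 lowest in WT, the 10 highest in both libraries, and members of the 20 marker panels and 10 gene lists. The Prdm6 cells, panels and lists were chosen with earlier results of these data known. Muc16, Cx3cr1, Gdf7, Gabrp, Gcm2, Nkx3-2, Myod1, Prdm14, Rpa2, Hn1 and Fosb were listed but not analysed here, and Mrtfa and Mrtfb were measured under their older symbols Mkl1 and Mkl2. The alternatives were thinning to 1000 UMIs, weighting by depth or leading panel, other limits for genes and panels, and leaving out the deepest cells or the cell or gene with most UMIs. The scripts were tested on simulated counts. Python 3.11.15, numpy 2.4.6, pandas 2.3.3, scipy 1.17.1 and matplotlib 3.10.9 were used.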

Additional observations from a re-analysis of the deposited data

Results flagged for a closer look

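Dqx1, a DEAQ-box RNA-dependent ATPase, was the only gene of the 5113 tested in both libraries that was called in opposite directions, with a log2 ratio of Prdm6 over Prdm6-zero cells of −2.52 in WT (3 UMIs, 14.2 against 81.3 CPM, −4.80 to −0.97) and 2.20 in KO (60 UMIs, 419 against 91.5 CPM, 1.80 to 2.57). The KO UMIs were in 5 cells, 31 of them in 1. The difference between the libraries was not tested.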

How the results depend on the processing

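Weighting Prdm6-zero cells to the depths of the Prdm6 cells moved the log2 ratios of cardiac muscle to 1.28 in WT and 1.66 in KO and those of smooth muscle to 1.31 and 1.43. Weighting to their leading panels, which are scored from the same markers, was chosen for panels after seeing the data. It gave 0.034 for cardiac muscle, 0.25 for smooth muscle and 0.31 for splanchnic mesoderm in WT, and −0.012, −0.018 and 0.44 in KO. The sign of smooth muscle regulators (−0.019 in WT, −0.047 in KO), endothelium in KO (0.089) and G2/M genes in KO (0.029) turned under that weighting. Without the deepest 10% of cells, cardiac muscle was 1.65 in WT and smooth muscle 1.37 in KO. Without the Prdm6 cell richest in the panel, cardiac muscle was 1.44 in WT and 1.90 in KO, and without its top gene splanchnic mesoderm was 0.87 in WT.

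The thinned shares of cells with a Prdm6 UMI were 0.472% and 0.259%. With only the Prdm6 cells that kept a UMI after thinning, cardiac muscle was 1.74 in WT and 1.31 in KO, smooth muscle 1.83 and 0.98, and G2/M genes in KO 0.037, a change of sign. KO over WT then turned to −0.73 for cardiac muscle and −0.21 for cardiac regulators, and smooth muscle was −1.19. The share of Prdm6 cells with no leading panel was 39.6% in WT and 29.8% in KO at 2 markers, 66.3% in WT at 4 markers and 67.0% in WT when cells were thinned before scoring. Splanchnic mesoderm in KO cells with no leading panel was 0.27 at 2 markers, and in WT it was 0.52 without Gata6, an alternative chosen after seeing the data.

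Higher and lower genes numbered 65 and 100 in WT and 54 and 82 in KO at a minimum of 10 expected UMIs, and 1536 and 759 in WT and 1572 and 833 in KO with no minimum. They numbered 514 and 850 in WT and 436 and 826 in KO at 1.5-fold, and 28 and 79 in WT and 41 and 100 in KO at 3-fold. Weighting to leading panels gave 32 higher genes in each library, and leaving out the deepest cells gave 67 in KO. The cause of each of these moves was not tested. Of all alternative values computed, 423 kept their direction and moved by less than the counting error or 1.5 times, 117 moved by more and 9 changed sign.

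Prdm6 in splanchnic mesoderm-led cells of KO over WT could not be given at 4 markers or a score of 5, with at most 3 UMIs in each library. No paired analysis was possible because each genotype had 1 library. Since Prdm6 was found at 1 or 2 UMIs per cell, a Prdm6-zero cell is not shown to lack the gene, and differences within the intervals were not detectable at this depth.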

Other observations

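Further gene lists were compared between Prdm6 cells and Prdm6-zero cells. Over all genes tested, 2.08% were called higher and 4.75% lower in WT, and 2.54% and 6.32% in KO. At these shares, 0 calls in a short list are no result about that list. Of the H4K20 methylation list, which includes the monomethyltransferase Kmt5a and histone deacetylases, 0 of 11 genes tested in WT and 0 of 9 in KO were called, and Kmt5a was at a log2 ratio of −0.01 in WT (56 UMIs, −0.41 to 0.37) and 0.32 in KO (48 UMIs, −0.12 to 0.73). The other Prdm genes summed to −0.27 in WT (33 UMIs, −0.81 to 0.22) and −0.18 in KO (23 UMIs, −0.84 to 0.41). S phase genes summed to log2 ratios of −0.25 in WT (−0.33 to −0.16) and −0.25 in KO (−0.36 to −0.15), with 4 of 40 and 2 of 37 genes at least 2-fold lower, against 4.75% and 6.32% of all genes, and 1 and 0 higher. Inside the cardiac muscle-led cells they were at −0.01 (−0.19 to 0.16) and −0.15 (−0.36 to 0.05). G2/M genes gave −0.05 and −0.09, and genes of the stress response −0.18 and −0.23, with 0 of 4 called in each library. BMP and Wnt signalling genes gave 0.28 (0.14 to 0.42) and 0.31 (0.13 to 0.48), with 2 of 17 called higher in WT and 0 of 10 in KO. Smooth muscle regulators gave 0.47 (0.28 to 0.65) and 0.68 (0.45 to 0.89), with 0 of 9 genes called higher and 1 lower in WT and 3 of 8 higher in KO, against 2.08% and 2.54% of all genes. Of these, Mkl2, a coactivator of serum response factor, had 17 UMIs in WT (0.22, −0.56 to 0.90) and 23 in KO (1.23, 0.57 to 1.82).

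Of the genes beside Prdm6 on its chromosome, Ppic, a cyclophilin, was at 0.64 in WT (28 UMIs, 0.04 to 1.17) and 1.20 in KO (21 UMIs, 0.50 to 1.82), and Snx2, a sorting nexin, at −0.38 in WT (12 UMIs, −1.33 to 0.43) and −1.03 in KO (4 UMIs, −2.91 to 0.33). The list of neighbours summed to 0.35 and 0.10.

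In some panels 1 Prdm6 cell held a large part of the UMIs. Of the 57 macrophage and megakaryocyte UMIs in WT Prdm6 cells, 55 were in 1 cell, and KO Prdm6 cells had 0. Endothelial markers gave −0.38 in WT (−0.79 to 0.01) and −0.73 in KO (−1.35 to −0.18), and 11 of the 26 KO UMIs were in 1 cell. Floor plate markers gave 0.23 and 0.29, with 18 of the 45 WT UMIs in 1 cell. Arch mesenchymal neural crest had 6 UMIs in WT (−1.26, −2.71 to −0.13) and 18 in KO (0.67, −0.09 to 1.34), 10 of the latter in 1 cell, and dermomyotome had 17 in WT (−0.85), 9 of them in 1 cell, and 6 in KO (−1.33). Head mesenchyme markers gave −0.57 and −0.29, and second heart field markers −0.05 (−0.71 to 0.54) and 0.34 (−0.40 to 0.99). Surface ectoderm had 2 and 1 UMIs (−1.03, −4.08 to 0.83, and −1.36, −6.67 to 1.12), otic 7 and 5 (0.06, −1.26 to 1.11, and 0.26, −1.37 to 1.49), and pharyngeal endoderm 6 and 0, the former at −0.08 (−1.53 to 1.06).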
